A study of Trametes coccinea with 9 samples.

Results

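Genes whose transcripts were abundant on pine and stayed near the maltose level on aspen were collected in *Pycnoporus coccineus* CIRM-BRFM 310, a white-rot fungus that degrades wood. The members were chosen by their measured values. With 10 added to the mean normalized count of each substrate, a gene had to reach 200 on pine, at least 4 times its value on maltose and at least 4 times its value on aspen, with an aspen to maltose ratio between 0.5 and 2 and every pine culture above every maltose and aspen culture. Of 12690 genes counted, 11202 had normalized counts. Of those, 868 had enough transcript on pine and a 4-fold ratio to maltose, 51 of these also had the ratio to aspen, and 25 met every condition. A GH3 β-glucosidase gene and an AA3_4 pyranose oxidase gene among the 25 were set aside, which left 23 genes. With the woods exchanged, the same conditions gave 22 genes for aspen. Since all 3 comparisons of substrates were used to choose the 23 genes, their differences between substrates are described here and not tested. Calls and adjusted p-values printed for these genes are part of that description, and nothing is read from them.

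The strain is a monokaryon, grown in liquid culture at 30 °C and harvested on day 3, with 3 independent cultures per substrate. The maltose medium held 20 g/l maltose, and the wood media held 15 g/l ground wood and, by the study's methods, 2.5 g/l maltose. The pine labels give the same maltose value, whereas the value in the aspen labels is not legible, so that equal maltose on both woods rests on the methods alone. Pine (*Pinus halepensis*) was ground with its bark and sifted below 2 mm, whereas aspen (*Populus grandidentata*) was milled to 1 mm, so that wood species, bark and particle preparation cannot be told apart, nor can wood and the lower maltose supply. Poly A RNA was sequenced from the mycelium together with the remaining solids, to a depth of 28399534 to 38654866 counts per library. Reads were trimmed to 78 bases in pine culture 2 and aspen cultures 1 and 3 and to 70 bases in the others. A change in transcript per cell cannot be told apart from a change in the share of the mycelium that expresses the gene.

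White-rot fungi degrade cellulose, hemicelluloses and lignin with secreted hydrolases and oxidoreductases. Softwoods such as pine differ from hardwoods such as aspen in their hemicelluloses, in their guaiacyl-rich lignin and in resin extractives such as terpenes, some of which are toxic to fungi. Intracellular cytochrome P450s, conjugating enzymes and membrane transporters are known from other white-rot fungi to process or export such compounds.

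None of the 23 genes was on the study's lists of CAZyme, class II peroxidase and laccase genes. None was among the 61 P450 genes listed for the transcriptome. The GH3 and AA3_4 genes set aside met every condition and are on the CAZyme list, so that the selection removed the CAZymes. Of all genes tested, 2.40% were listed as CAZymes, 0.548% as P450s, 0.0988% as class II peroxidases and 0.0629% as laccases or ferroxidase. Nothing is read from the absence of such genes among so few members. The P450 list covers part of the family in this genome, and the members were not checked against the rest. On the study's list of genes of unknown function stood 7 of the 23 genes (30.4%), against 18.9% of the 11130 genes tested. A signal peptide, which directs a protein to secretion, was predicted for 4 of the 7 (1369226, 1464576, 1437714 and 379384) and not for the other 3 (679895, 361980 and 1457875). Among all tested genes of unknown function, 14.1% had such a prediction. The other 16 genes stood on no list, and the sources used here give no function for them. They are therefore named by their gene numbers. The members were of ordinary length, with a median gene span of 1676 bases (781 to 5156) beside 1679 bases for all genes tested.

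All 23 genes together took 0.878% to 1.18% of the normalized counts in the pine cultures, 0.113% to 0.143% in the maltose cultures and 0.120% to 0.140% in the aspen cultures. The mean on pine ran from 262 to 116719 normalized counts, with a median of 8643. The median ratio of pine to aspen was 6.07 (4.17 to 79.6) and that of pine to maltose 8.79 (4.14 to 50.04). The lowest pine value was 1.39 to 21.2 times the highest value on maltose or aspen. In the plot of values by culture the 3 pine symbols lie to the right of the other 6 in every line, as the selection required, with the widest gaps in the upper lines.

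**Figure D1:**
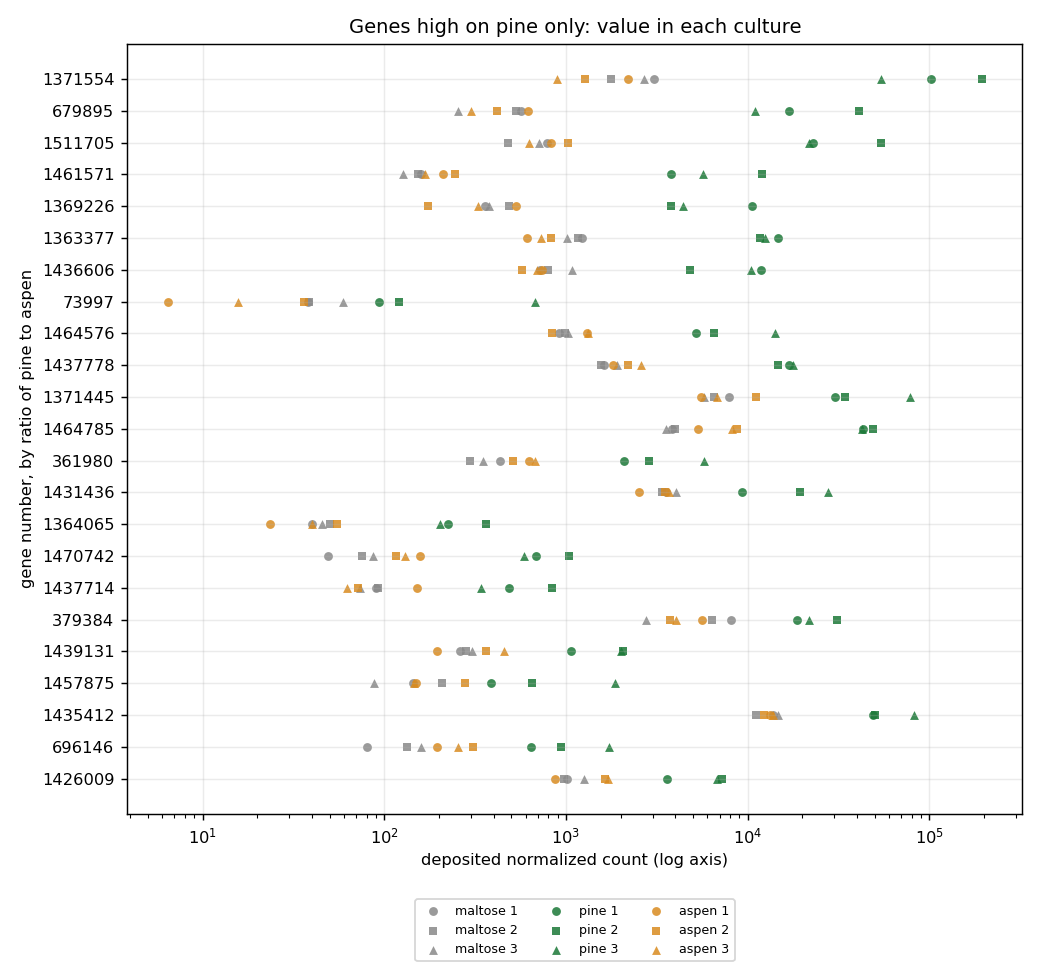
Deposited normalized counts (log axis) of the 23 genes in each of the 9 cultures, with colour for the substrate, symbol shape for the culture number and 1 gene per line in order of the ratio of pine to aspen. The 4 uppermost genes have ratios of 32.8 to 79.6, and the lowest line has 4.17.

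The most abundant of these transcripts on pine was 1371554. Its normalized counts were 101941, 194083 and 54134 in pine cultures 1, 2 and 3, against 3059, 1762 and 2685 on maltose and 2204, 1274 and 894 on aspen. The lowest pine culture was 17.7 times the highest of the other cultures. The pine mean was 46.5 times that on maltose and 79.6 times that on aspen, and the log2 fold changes from edgeR were 5.52 (SE 0.52) and 6.30 (SE 0.54). With all cultures its aspen to maltose ratio was 0.584, and without aspen culture 1 the gene did not meet the conditions. This gene alone made up 12.7% to 35.7% of the summed normalized counts of the 23 genes in the pine cultures. Scaled to gene span, its level on pine was 2027 CPM per kb, at percentile 99.6 of all genes tested.

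The gene 679895, of unknown function and without a predicted signal peptide, had a similar pattern at a lower level. Pine cultures 1, 2 and 3 had 16976, 41122 and 10947 normalized counts, maltose cultures had 565, 532 and 253, and aspen cultures had 621, 418 and 298. Aspen and maltose values overlapped, and the pine mean was 50.04 times that on maltose and 50.5 times that on aspen. The log2 fold change from aspen to pine was 5.66 (SE 0.54), and without pine culture 2 it was 4.95. In the annotation this gene overlaps its neighbour 1479114 by 84 bases, and reads within the overlap cannot be assigned without strand information.

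The gene 1511705 lies near 1371554 in the genome. Its normalized counts on pine were 22823, 54472 and 21846, against 783, 479.8 and 707 on maltose and 831, 1031 and 623 on aspen. It showed the widest separation among the 23 genes, with the lowest pine value at 21.2 times the highest value elsewhere. The pine mean was 49.6 times that on maltose and 39.4 times that on aspen.

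The gene 1461571 completed the group with ratios to aspen over 30. Its pine cultures had 3795, 11989 and 5670.0 normalized counts, its maltose cultures 160.1, 152 and 127, and its aspen cultures 211, 246 and 167. Aspen values were thus slightly above those on maltose, and the pine mean was 32.8 times that on aspen (log2 fold change 5.07, SE 0.39, and 4.48 without pine culture 2). Together, these 4 genes took 21.8% to 55.5% of the summed counts of the 23 genes in pine cultures and 4.17% to 9.39% in the others. All 4 were highest in pine culture 2.

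A second tier of ratios, between 10.5 and 17.7 relative to aspen, held 4 genes. Of these, 1369226 encodes a protein with a predicted signal peptide and a domain of unknown function, DUF3455. Pine cultures had 10532, 3775 and 4419 normalized counts, maltose cultures 359, 486 and 376 and aspen cultures 529, 174 and 327. The pine mean was 15.0 times that on maltose and 17.7 times that on aspen, and the log2 fold change to aspen was 4.17 (SE 0.47), or 3.53 without pine culture 1. It was the only member on the study's lists of secreted proteins. That list was the aspen one, and the protein was on neither the pine nor the maltose list, whereas its transcript was highest on pine. The lists record whether a secreted protein was detected, not its amount, and are thus a different measure from transcript level.

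The gene 1363377 was the most even of this tier between pine cultures. Its normalized counts were 14729.8, 11683 and 12453 on pine, 1219, 1166 and 1012 on maltose and 611, 831 and 729.8 on aspen. Here every aspen value lay below every maltose value, with a log2 fold change between them of -0.65 (SE 0.20), and the ratio of pine to aspen (17.7) exceeded that of pine to maltose (11.4). The gene 1436606 had 11871, 4812 and 10471 normalized counts on pine, 716, 792 and 1079 on maltose and 735, 574 and 693 on aspen. Its pine mean was 13.4 times that on aspen and 10.4 times that on maltose.

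The last gene of the tier, 73997, had the tier's lowest transcript level and rested largely on a single culture. Pine cultures 1 and 2 had 93.5 and 121 normalized counts and pine culture 3 had 676, while maltose cultures had 37.8, 38.6 and 59.4 and aspen cultures 6.43, 35.9 and 15.6. The highest pine value was 7.23 times the lowest, the widest range among the members. The log2 fold changes were 2.64 (SE 0.69) to maltose and 3.87 (SE 0.75) to aspen. Without pine culture 3 they were 1.22 and 2.45, and the call against maltose was lost (edgeR quasi-likelihood test, Benjamini-Hochberg adjusted p = 0.0638). The call against aspen was kept in that fit (edgeR adjusted p = 0.00836). The selection used both contrasts, so that nothing is read from either call. Without aspen culture 2 the log2 fold change to aspen was 4.67.

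The remaining 15 genes had ratios of pine to aspen under 8. Several of them were abundant on all substrates. The gene 1435412 had 49112, 50049.5 and 82329.8 normalized counts on pine, 13771, 11041 and 14689 on maltose and 13236, 12239.5 and 13706 on aspen, the highest level among the 23 genes outside pine. Maltose and aspen were level (log2 fold change -0.01, SE 0.23), and pine was 4.63 times aspen. The gene 1371445 had 30247, 34459 and 78612 normalized counts on pine, 7846, 6520.1 and 5781 on maltose and 5528, 11155 and 6754 on aspen. Its pine to aspen ratio was 6.11, with pine culture 3 far above the other pine cultures.

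For 1464785 the pine cultures were close together, at 43252, 49031 and 42668 normalized counts. Maltose cultures had 3843, 3980.3 and 3531 and aspen cultures 5294, 8723 and 8178, so that all aspen values lay above all maltose values. The ratio of pine was 11.9 to maltose and 6.07 to aspen, and the log2 fold change from maltose to aspen was 0.96 (SE 0.22). The gene 1437778 was similarly even, with 16863, 14700.4 and 17648 normalized counts on pine, 1620.2, 1564 and 1901 on maltose and 1825, 2202 and 2574 on aspen. Its pine mean was 7.43 times that on aspen.

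A pair of the genes of unknown function with a predicted signal peptide stood out by level. The gene 379384 had 18588, 31192 and 21699.8 normalized counts on pine, 8112, 6388 and 2741 on maltose and 5604, 3716 and 4040.4 on aspen. Per kb of gene span it ranked second on pine among the 23 genes (793 CPM per kb), and its ratio to maltose, 4.14, was the smallest that met the threshold. The gene 1464576 had 5194, 6524 and 14212 normalized counts on pine, 909.6, 992 and 1022 on maltose and 1301, 832 and 1320.0 on aspen. Its ratios were 8.79 to maltose and 7.45 to aspen. The third gene of this kind below 8-fold, 1437714, was much lower, with 488, 833 and 343 normalized counts on pine, at most 92.8 on maltose and at most 151 on aspen.

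Genes of unknown function without a signal peptide were 361980 and 1457875, besides 679895. The gene 361980 had 2097, 2869.5 and 5746 normalized counts on pine, 436, 297 and 348 on maltose and 622, 509 and 677 on aspen, a ratio of 5.85 to aspen. For 1457875 the pine cultures had 388, 648 and 1868, the maltose cultures 145, 208 and 88.1 and the aspen cultures 150.1, 279 and 146. This gene had the narrowest separation, with the lowest pine value at 1.39 times the highest value elsewhere. Its log2 fold change to aspen was 2.28 (SE 0.50), 1.42 without pine culture 3, and its call was lost with the library code prefix in the model (edgeR adjusted p = 0.0689). Nothing is read from this call either, as the selection used the same contrast.

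The gene 1431436 had 9279, 19408 and 27532 normalized counts on pine, 3547, 3359.7 and 4024 on maltose and 2510.3, 3521 and 3703 on aspen, with a ratio of 5.76 to aspen. Among the rarer transcripts, 1470742 had 681, 1032 and 590.0 on pine, 48.9, 75.1 and 87.1 on maltose and 157, 116 and 129.7 on aspen, and 1364065 had 223, 361 and 203 on pine and at most 55.0 elsewhere. The gene 1470742 was another member with all aspen values above all maltose values. Close to the lower end of the ratio to aspen were 1439131 (4.96), 1457875 (4.84), 1435412 (4.63), 696146 (4.23) and 1426009 (4.17). Pine cultures had 1067, 2069 and 2017 normalized counts of 1439131, 639, 942 and 1716 of 696146, and 3608, 7223 and 6794 of 1426009. For 696146 aspen values of 194, 307 and 256 lay above maltose values of 80.1, 134 and 158.

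By the edgeR quasi-likelihood test over all genes, with Benjamini-Hochberg adjusted p under 0.05, all 23 genes were called higher on pine than on maltose, as were 29.1% of the genes tested, and higher on pine than on aspen, as were 15.2%. Pine was called lower than maltose for 28.8% and lower than aspen for 15.1% of all genes, and for none of the 23. Every pine value lay above every other value for 11.1% of the 11202 genes. Between aspen and maltose, 4 of the 23 genes were called different, as were 51.2% of all genes. On aspen, 1464785, 1470742 and 696146 were higher (26.3% of all genes) and 1363377 was lower (24.9%). The call of 1464785 held in every alternative fit. Those of 1363377 and 1470742 were lost with trim length in the model (edgeR adjusted p = 0.131 and 0.166) and without maltose culture 1 or aspen culture 1. That of 696146 was lost with the library code prefix in the model (edgeR adjusted p = 0.0513) and without maltose culture 1 or 2 or aspen culture 2 or 3. Nothing is read from these counts, as the selection fixed or bounded all 3 ratios. The aspen mean was above the maltose mean for 13 genes and below it for 10, and the single values overlapped for 16. Neither the direction nor the overlap was counted over all genes, and the selection bounded this ratio, so that nothing is read from either. The median log2 fold changes of the 23 genes were 2.58 from aspen to pine, 3.11 from maltose to pine and 0.21 from maltose to aspen, beside -0.05, -0.03 and -0.02 over all genes.

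**Figure D2:**
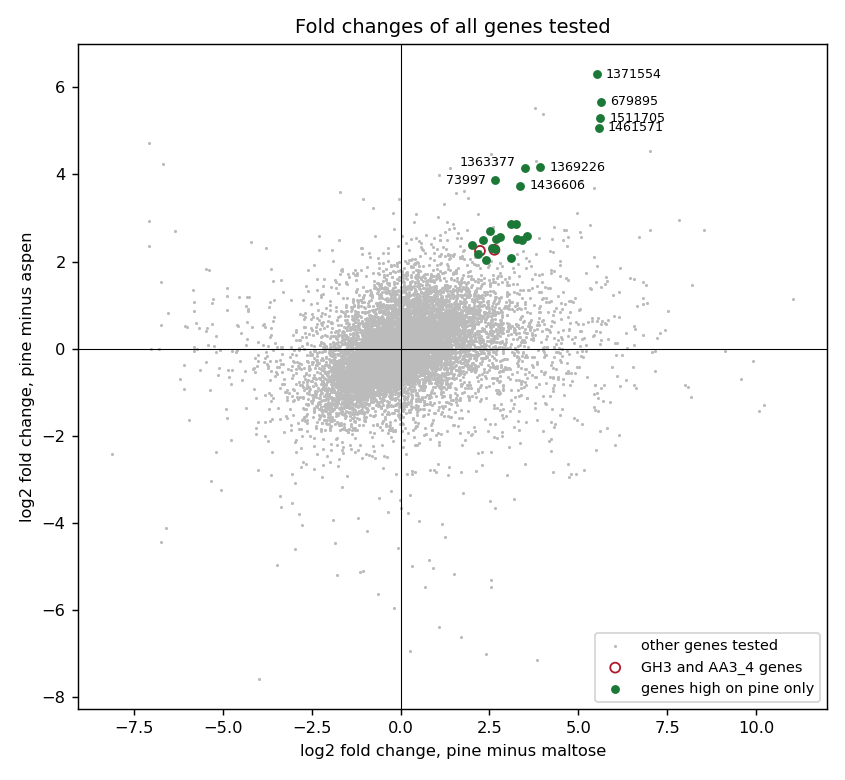
Log2 fold change of pine minus aspen against pine minus maltose from edgeR for the 11130 genes tested, with the 23 selected genes in green and the GH3 and AA3_4 genes set aside as open circles. The 4 genes at the upper right (1371554, 679895, 1511705 and 1461571) stand apart from the other members, with log2 fold changes of 5.07 to 6.30 relative to aspen.

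For both pine ratios and the upper limit of aspen to maltose, values lay close to the threshold on both sides. Just inside the limit on the pine to aspen ratio was 1426009 at 4.17 and just outside was 1384336 at 3.96, and 39 genes missed this condition alone. For pine to maltose the values were 4.14 (379384) and 3.95 (1464936), with 18 genes missing it alone. For the upper limit of aspen to maltose they were 1.96 (696146) and 2.15 (1468765), with 24 genes missing it alone. For the lower limit they were 0.531 (73997) and 0.301 (1436847), with 1 gene missing it alone. The lowest mean on pine plus 10 was 272 (1364065), and 1 gene, 1476751 at 147, missed this condition alone. No gene missed the order of the single values alone. The GH3 and AA3_4 genes that were set aside had ratios of pine to aspen of 4.81 (1434274) and 4.87 (1471985), in the lower part of the range of the 23 genes. With 1 library left out at a time, 13 of the 23 genes met the conditions every time. Without pine culture 3, 17 of the 23 remained, and without pine culture 1 the conditions gave 36 genes, all 23 among them.

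The members fell into different patterns among the pine cultures. The selection used these values through the pine mean and the lowest pine culture, so that a gene lifted by a single culture could enter, and the patterns are given as a description. Of the 23 genes, 11 were highest in pine culture 2, 9 in pine culture 3 and 3 in pine culture 1. Over all genes the shares were 29.2%, 34.2% and 36.6%. Over the 8021 genes with a mean on pine of at least 200 they were 32.2%, 33.0% and 34.8%. By TMM-normalized CPM, 11, 8 and 4 of the 23 genes were highest in pine cultures 2, 3 and 1. Over all genes the shares on that scale were 28.4%, 30.3% and 41.3%. Some orders were near ties, such as 2069 and 2017 normalized counts of 1439131 in pine cultures 2 and 3. By normalized counts, the 3 genes highest in pine culture 1 were 1369226, 1363377 and 1436606, with ratios to aspen of 13.4 to 17.7. The lowest pine value was in culture 1 for 12 members, beside 3800 of all 11202 genes and 2998 of the 8021. Pine culture 2 was also the only pine library with reads trimmed to 78 bases, so that trimming and culture cannot be told apart there. The median coefficient of variation of the 23 genes was 0.488 among pine cultures, 0.156 on maltose and 0.247 on aspen. On pine it was 0.242 over all genes and 0.211 over the 8021. Nothing is read from the larger value on pine, since the selection favours a pine mean raised by 1 culture. The highest pine value was 1.15 (1464785) to 7.23 (73997) times the lowest. Members of these patterns did not share a single profile across cultures, as the plot of the pine cultures shows.

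**Figure D3:**
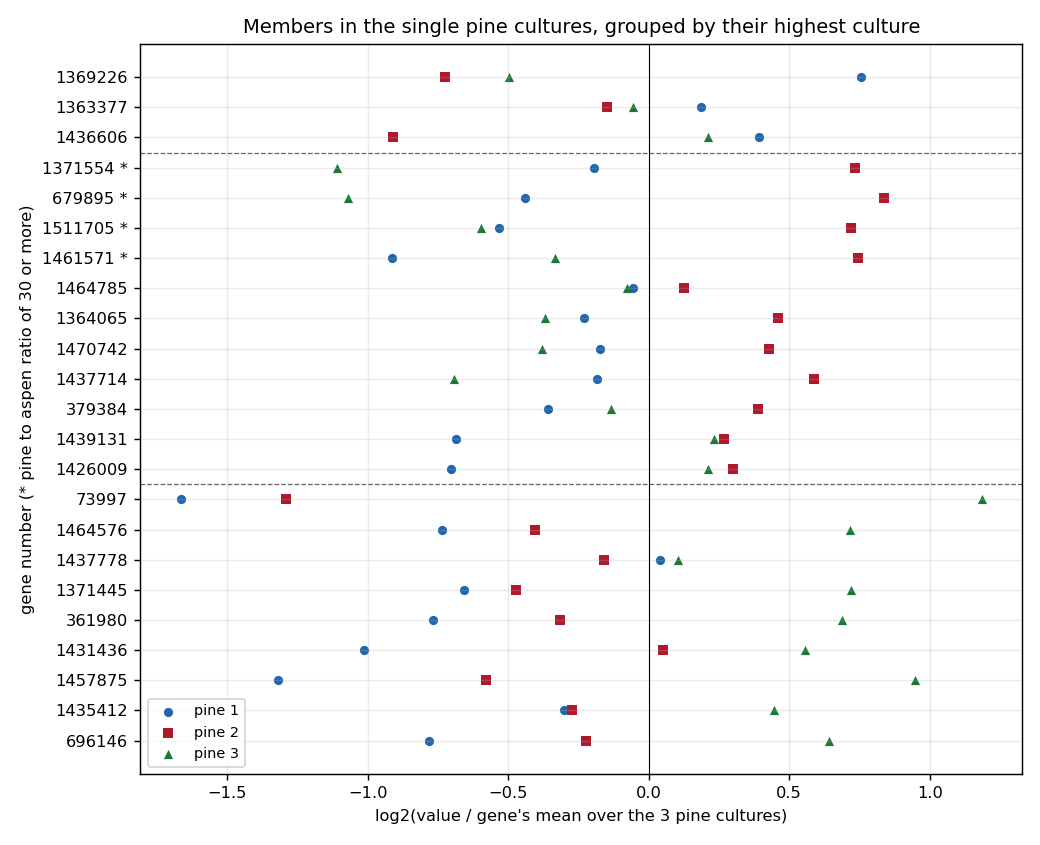
Log2 of the normalized count in each pine culture over the gene's mean of the 3 pine cultures, for the 23 genes grouped by the culture in which they were highest. The 4 genes with a ratio to aspen of 30 or more (asterisks) all have their highest value in pine culture 2, and 73997 has the widest range.

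The position of the genes was not used in the selection. In the gene order of assembly Pycco1, all 23 genes were found, and 4 of them formed a pair of close couples. How often other genes form such couples was not counted, so that nothing is read from this number. The genes 1511705 and 1371554 lay 2 places apart with 2010 bases between them. Both belonged to the 4 genes with ratios over 30, and both were highest in pine culture 2. The gene between them, 710961, had raw counts of 13, 10 and 5 on pine, 4, 1 and 2 on aspen and 0 in all maltose cultures, too few for the test. The genes 1363377 and 73997 also lay 2 places apart, with 1876 bases between them, but were highest in different pine cultures (1 and 3). The gene between them, 73928, had 6 to 24 raw counts in every library.

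Directly beside the 23 genes lay 44 genes that were not members, of which 40 could be tested. By the same edgeR test, 13 of the 40 (32.5%) were called higher on pine than on aspen and 6 (15.0%) were called lower, beside 15.2% and 15.1% of all genes. Their median log2 fold change was 0.32, against -0.05 over all genes. At least 1 such neighbour lay beside 10 of the 23 genes (43.5%), against 25.6% of the 11123 tested genes found in the order. Within 3 places, 29 of 120 tested neighbours (24.2%) were higher and 12 were lower. Without pine culture 2, 7 of 41 neighbours were called (17.1%, with 10.2% of all genes), and with the library code prefix in the model 6 of 40 (15.0%, with 6.13%). Without pine culture 3 or aspen culture 1, 8 of 40 were called (20.0%, with 11.8% and 9.49% of all genes), and without aspen culture 3, 8 of 41 (19.5%, with 12.3%). Whether neighbours differed from other genes was not tested.

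**Figure D4:**
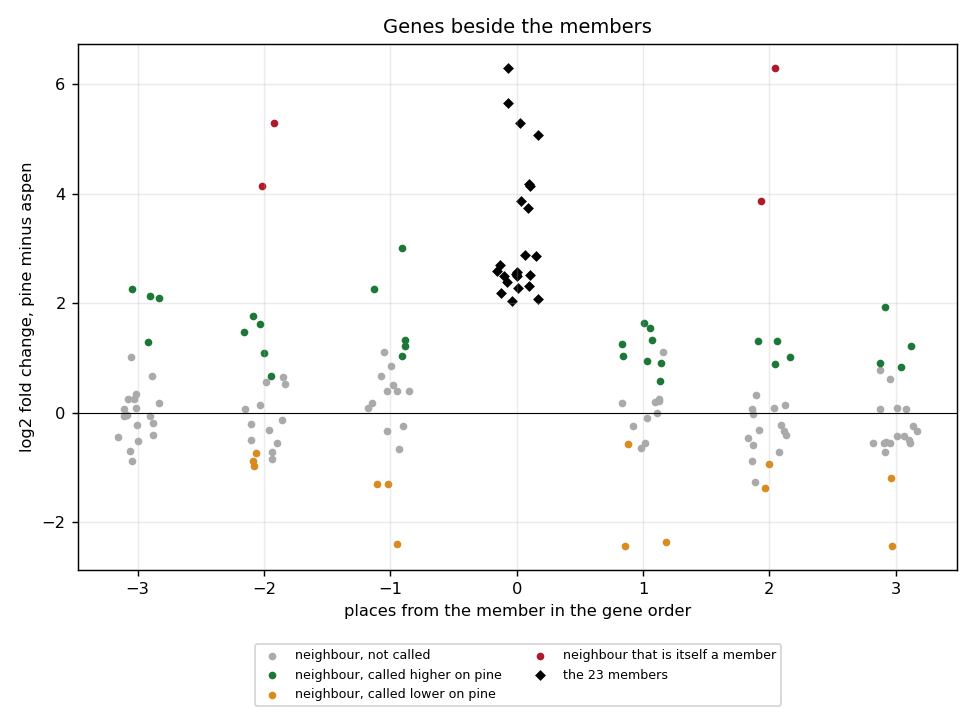
Log2 fold change of pine minus aspen for genes 1 to 3 places before (negative) or after (positive) each of the 23 genes, with members at 0 as diamonds and sideways scatter added only to separate the points. Green points are neighbours called higher on pine by edgeR (13 directly adjacent), and red points are members that neighbour another member.

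The 13 adjacent genes did not all share the pattern of the members. Called higher on pine than on maltose, and not called between aspen and maltose, were 1479114 and 1442784. Their log2 fold changes from maltose to pine were 1.09 and 0.63, below those of every member. On pine, 7 of them were also called higher than on maltose and 6 were not called, and on aspen 4 were called lower than on maltose and 5 higher. The gene 1475883, of unknown function and directly before 1363377, had 51, 84 and 79 raw counts on pine, 65, 74 and 90 on maltose and 22, 13 and 19 on aspen. Its pine and maltose values overlapped, and its log2 fold changes were 2.26 (SE 0.39) from aspen to pine and 0.24 (SE 0.36) from maltose to pine. The gene 532900, beside 1426009 and with a predicted signal peptide, had 1788, 1912 and 1490 raw counts on pine, 290, 305 and 371 on maltose and 562, 770 and 661 on aspen. It rose in steps, with log2 fold changes of 1.63 (SE 0.19) from aspen to pine (edgeR adjusted p = 0.000135) and 1.09 from maltose to aspen. The largest value among the 13, 3.01 for 702296 beside 1371445, rested on 0 to 19 raw counts.

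Both neighbours of 679895 were among the 13. The overlapping 1479114 had a log2 fold change of 1.03 (SE 0.28) and 1479116 of 1.33 (SE 0.39) from aspen to pine, far below the 5.66 of the member between them. Both neighbours of 1464576 (1474773 at 1.21 and 1442784 at 0.91) and of 1464785 (1361361 at 1.33 and 1442915 at 1.04) were called as well. The others were 1465988 beside 1364065 (1.26), 1374922 beside 1439131 (1.55), 362268 beside 361980 (0.57) and 1446300 beside 696146 (0.95).

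Of the 120 tested neighbours within 3 places, 4 were on the CAZyme list (3.33%), close to the 2.40% of all genes tested. The manganese peroxidase gene 1468611, whose enzyme oxidizes Mn(II) to attack lignin, stood 3 places from 1369226. Raw counts of this gene were 28 to 66 with maltose, 12756 to 44580 with pine and 42527 to 83085 with aspen, so that it was high on both woods, unlike its neighbour. The GH12 gene 1358049, of a family of endoglucanases that cut cellulose and related glucans, stood 3 places from 379384, and its raw counts were 26 to 58 with maltose, 1537 to 6740 with pine and 1439 to 2752 with aspen. Its log2 fold changes were 6.82 from maltose to pine and 1.02 (SE 0.43) from aspen to pine, and the latter was not called (edgeR adjusted p = 0.0907). The GH16 gene 1473510, of a family of β-glucan-active enzymes, stood 2 places from 361980 and was called higher on pine than on aspen, at 0.90 (SE 0.23, edgeR adjusted p = 0.0116). Directly beside members stood a P450 gene, 1468613, next to 1369226, and a GT20 gene, 1442619, next to 1431436, neither of them called between the woods. The versatile peroxidase gene 1469331, 3 places from 679895, had 16 to 64 raw counts and was not called either.

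Of the 61 listed P450 genes, which are part of the family, 15 were called higher on pine than on aspen and 15 lower, with a median log2 fold change of 0.05. Between pine and maltose, 34 of these 61 were higher and 19 lower. Of 267 tested CAZyme genes, 65 were higher and 57 lower on pine than on aspen. Among genes of unknown function, 77 of 297 with a predicted signal peptide were higher on pine than on aspen and 41 lower. Of the 1810 without it, 272 were higher and 330 lower. Over all genes tested, 15.2% were called higher on pine than on aspen and 15.1% lower. Against maltose the shares over all genes were 29.1% higher on pine and 28.8% lower. Whether these lists differed from other genes was not tested.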

How the data were processed

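RNA from 9 cultures was sequenced as paired reads. By the submitters' notes, TopHat2, HTSeq and DESeq version 1.5 were used. The deposited raw counts are whole numbers of reads per gene that the authors counted, and both reads of a pair were counted. The deposited normalized values, a signal scale, are those counts multiplied by the authors by 1 constant per library (0.99 to 1.59). The strand setting is not given in the sources used here. The members and lists were chosen with earlier results of these data known. Normalized counts gave the members. Tests used raw counts in edgeR version 4.0.16 (R version 4.3.3, TMM, glmQLFit and glmQLFTest, 1 model for 3 groups and 9 libraries), leaving out genes with a mean count under 5, with Benjamini-Hochberg adjustment over 11130 genes. TMM factors lay between 0.835 and 0.897 for the pine libraries and between 1.03 and 1.27 for the others. The model was tested on simulated data. Levels per kb are TMM-normalized CPM over gene span. SEs were derived from the quasi-likelihood F statistic. Of 12690 gene numbers, 12680 matched the gene table of assembly Pycco1, used for order and spans only. Lists came from the study's tables. Named genes were members on a list, the 10 highest on pine and by ratio to aspen, close pairs, those at thresholds, and neighbours on a list or called, and the other members were added after their values were seen. Protein similarity, promoter motifs and product-name lists were not used here. Alternatives were other rule settings, DESeq2 version 1.42.0, other filters, left-out libraries, trim length, library code prefix and a replicate block.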

Additional observations from a re-analysis of the deposited data

How the results depend on the processing

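The number of genes meeting the conditions was 61 at a ratio of at least 3 and 11 at a ratio of at least 6, and ran from 20 to 36 with 1 library left out. It was 16 to 24 with another offset, aspen to maltose range, pine minimum or TMM-normalized counts. With only the libraries trimmed to 70 bases, an alternative chosen after seeing the data, it was 25, of which 16 were shared. Calls over the 23 genes ran from 22 to 23 against maltose and against aspen under every alternative run. The selection used these same values, so that nothing is read from these calls. Over all genes, the share called higher on pine than on aspen ran from 6.13% (library code prefix) to 19.3% (DESeq2). Calls between aspen and maltose ran from 1 to 5 with 1 library left out. Adjacent genes called higher on pine than on aspen numbered 6 with the library code prefix in the model, 7 to 14 with 1 library left out, and 29 when genes within 3 places were counted. No pine library carried the prefix of maltose culture 3 and aspen cultures 1 and 2, so that this term rests on maltose and aspen alone. The correlation of deviations between same-numbered cultures ran from -0.103 to 0.415 and was above 0.1 for 5 of 9 pairs of cultures, and since this was not so for every pair the numbers were not taken as pairing the samples. With the replicate block, the calls were 23 against maltose, 23 against aspen, 5 between aspen and maltose and 15 adjacent genes. Leaving out a library moved the fold of 5 members by over 1.5 times. The cause of these changes was not tested. No called fold change of a member changed sign.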
